A study of Mus musculus with 16 samples.

Results

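The collagen chain genes on the array were taken as all probes whose gene symbol in the deposited table is Col, a type number, the letter a and a chain number. This gave 36 of 18097 gene symbols, on 58 of 25697 probes: 17 probes for 11 fibrillar genes, 9 probes for 6 basement membrane genes, 9 probes for 7 FACIT genes and 23 probes for 12 genes of other types. Of these, 35 probes for 29 genes were detected (detection p under 0.05) on at least 3 of 15 arrays and were tested. They cover all 11 fibrillar genes, 4 of 6 basement membrane genes, 6 of 7 FACIT genes and 8 of 12 other genes. The remaining 23 member probes stayed out of the tests, among them 12 detected on none of the 16 arrays. Col6a3 and Col8a1 had no probe with a matching symbol.

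Collagens are extracellular matrix proteins whose chains wind around each other into a long helix. Fibrillar chains (types I, II, III, V, XI, XXIV and XXVII) assemble into the cross-banded fibrils that carry tension, and FACITs, collagens with interruptions in the helix, sit on the surface of such fibrils. Type IV forms the sheet-like network of basement membranes, which wraps every muscle fibre and capillary. In muscle, these proteins are made mostly by fibroblasts and fibroadipogenic progenitors, which expand after injury and lay down the matrix along which fibres regenerate. The chains are hydroxylated and folded with the help of chaperones, secreted, trimmed at their ends and cross-linked before they are functional.

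The samples were hamstring muscle RNA of female mice, collected on day 2 after surgery and hybridised to Illumina expression arrays. SCI+CDTX mice had a spinal cord injury between vertebrae T12 and T13 and an intramuscular injection of cardiotoxin (CDTX), a toxin from snake venom that kills muscle fibres and starts their regeneration. SCI+Saline mice had the same lesion and a saline injection, Sham+CDTX mice sham surgery and cardiotoxin, and Sham+Saline mice sham surgery and saline. Per the series design, bone forms in the muscle (neurogenic heterotopic ossification) only after SCI with CDTX. Each group has 4 arrays. SCI+CDTX 2 was excluded from the final analysis by the authors and is left out of the fit here, so that SCI+CDTX has n = 3. The labels give neither strain nor age and name no animal for an array, so a p-value measures the spread between these samples.

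Mean raw intensity lay between 230.5 and 277 on the 4 Sham+Saline arrays and between 319.9 and 373.1 on the other 12. All SCI arrays were on 1 slide and all sham arrays on another, so SCI against sham cannot be told apart from slide, while each comparison of CDTX with saline lay within a slide. Muscle fibre genes (Acta1, Ckm, Myh4, Tnnt3) were detected on all 16 arrays. A score of how far 2 probes of the same gene diverge, taken over 2847 genes without the collagens, was 18.5 to 20.8 on the Sham+CDTX arrays, 15 on SCI+CDTX 2 and -14.2 to -3.4 on the other 11. It therefore moves with Sham+CDTX, and in a fit that holds it the score and this group can hardly be told apart. For the main results that involve this group, the value from such a fit of all 16 arrays is given as well. Within groups, the score stood out on SCI+CDTX 2, at 15 against -6.2 to -3.4 on the other SCI+CDTX arrays. Values from that fit therefore rest largely on this array. The number of arrays limits the precision of every comparison.

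Sequences are shown here for the collagens on which the comparisons turn, 250 bases before the RefSeq start of each gene (GRCm38.p6). Col1a2, Col3a1 and Col5a1 are the fibrillar genes called higher in SCI+CDTX than in SCI+Saline, and Col16a1 had the largest fold change there. Capitals mark 3 motifs, searched on both strands. They are the CCAAT box, the TATA box with the letters TATAAA, and the GC box with the letters GGGCGG. No match shown overlaps another.
Col1a2, chr6:4505368-4505617, plus strand: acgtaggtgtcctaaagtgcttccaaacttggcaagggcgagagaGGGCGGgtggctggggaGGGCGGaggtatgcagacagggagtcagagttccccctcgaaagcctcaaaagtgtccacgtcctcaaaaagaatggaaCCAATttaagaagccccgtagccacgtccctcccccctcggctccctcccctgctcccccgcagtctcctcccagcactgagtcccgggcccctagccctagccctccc
Col3a1, chr1:45311288-45311537, plus strand: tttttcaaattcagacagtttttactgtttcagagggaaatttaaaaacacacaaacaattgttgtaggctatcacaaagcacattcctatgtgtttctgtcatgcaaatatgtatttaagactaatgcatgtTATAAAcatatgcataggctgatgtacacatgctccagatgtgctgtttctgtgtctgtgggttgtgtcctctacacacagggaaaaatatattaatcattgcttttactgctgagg
Col5a1, chr2:27886175-27886424, plus strand: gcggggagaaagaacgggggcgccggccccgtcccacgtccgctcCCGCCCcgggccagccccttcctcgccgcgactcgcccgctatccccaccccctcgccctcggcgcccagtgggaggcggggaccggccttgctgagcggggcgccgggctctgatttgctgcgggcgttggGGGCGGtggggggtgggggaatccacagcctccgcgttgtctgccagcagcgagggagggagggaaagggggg
Col16a1, chr4:130047590-130047839, plus strand: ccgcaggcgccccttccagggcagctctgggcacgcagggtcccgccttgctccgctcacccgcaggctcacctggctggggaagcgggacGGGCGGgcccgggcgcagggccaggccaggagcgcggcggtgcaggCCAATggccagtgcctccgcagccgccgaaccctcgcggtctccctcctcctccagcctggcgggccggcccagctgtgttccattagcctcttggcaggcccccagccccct

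The RefSeq table held 32 promoters for 29 of the 36 genes, and not for Col12a1, Col14a1, Col1a1, Col2a1, Col4a3, Col5a2 and Col9a3. CCAAT was found before the start in 12 of the 32, against 33.8% of 32851 promoters of all genes. TATAAA was found in 5 of the 32, against 12.4% of all, and GGGCGG in 18 of the 32, against 32.7% of all. Col1a2 and Col16a1 share the CCAAT box at 109 and 113 bases before the start, and Col3a1 lacks both other motifs in this window. Col4a1 and Col4a2, the chains of the main type IV collagen, lie head to head on chromosome 8, with their RefSeq starts 21 bases apart. Col4a2 starts at base 11312805 on the plus strand and Col4a1 at base 11312826 on the minus strand, so each is read across the other's start. The 20 bases between the starts thus lie downstream of both and not in a gap between the genes. Motifs are not marked in them, although they hold the letters GGGCGG.
Col4a1 and Col4a2, chr8:11312806-11312825, plus strand: gtgcgcgggcggcgtctcca

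Arrays Sham+Saline 4 and SCI+Saline 4 stood apart from the other 14 in the cartilage collagens. Col2a1, the chain of the cartilage fibril collagen, had a raw bead intensity of 647.5 on Sham+Saline 4 and 283.1 on SCI+Saline 4, against 93 to 110.4 on the other 14 arrays. Col9a2, a FACIT chain of cartilage fibrils, had a raw intensity of 181.3 and 136.7 on these arrays, against 93.3 to 114.4. Col10a1, the collagen of hypertrophic cartilage, was detected on these 2 arrays alone, at raw intensities of 160 and 113.6, against 86 to 105.3. Of the 4 bone markers, Bglap (osteocalcin), Ibsp and Sp7 were likewise detected on no other array, and Dmp1 on none. Bglap had a raw intensity of 2766.8 on Sham+Saline 4 and 649.3 on SCI+Saline 4, against 88.4 to 108.8 elsewhere, and the neutrophil granule gene Camp 847.5 and 867.6, against 86.3 to 120.4. Of the 5 cartilage markers, Acan, Hapln1 and Matn1 were detected on Sham+Saline 4 and not on SCI+Saline 4, Sox9 on 13 of 16 arrays and Matn3 on none. Besides Sham+Saline 4, 1 Acan probe was detected on Sham+CDTX 2. The tendon marker Mkx was detected on Sham+Saline 4 alone, and Tnmd and Thbs4 on no array.

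The 2 tested Col2a1 probes share 44 bases, so they are not independent measurements, and both were high on the same arrays. The base numbers are the deposited start positions, which do not match this overlap. The shared bases are in capitals.
Col2a1, base 4315: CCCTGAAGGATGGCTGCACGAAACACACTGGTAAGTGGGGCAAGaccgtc
Col2a1, base 4156: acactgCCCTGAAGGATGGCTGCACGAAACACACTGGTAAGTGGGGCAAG

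The brighter Col2a1 probe was detected on 4 of 16 arrays, these 2 among them, and neither Col2a1 nor Col9a2 was called in any comparison of the 15 arrays. Without SCI+Saline 4, Col9a2 was called lower for CDTX in sham mice (-0.96, limma adjusted p = 0.0438), and without Sham+Saline 4 for CDTX in SCI mice (-0.59, adjusted p = 0.0477). Their group spread, an SD of 2.4 for Col2a1 and 1.24 for Col9a2 in Sham+Saline (n = 4), was wider than that of any other tested collagen gene in that group except Col1a1 (1.32). Since part of the collagen results rests on both arrays, values without them are given for the collagens whose calls they change. That alternative was chosen after seeing the data.

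**Figure D1:**
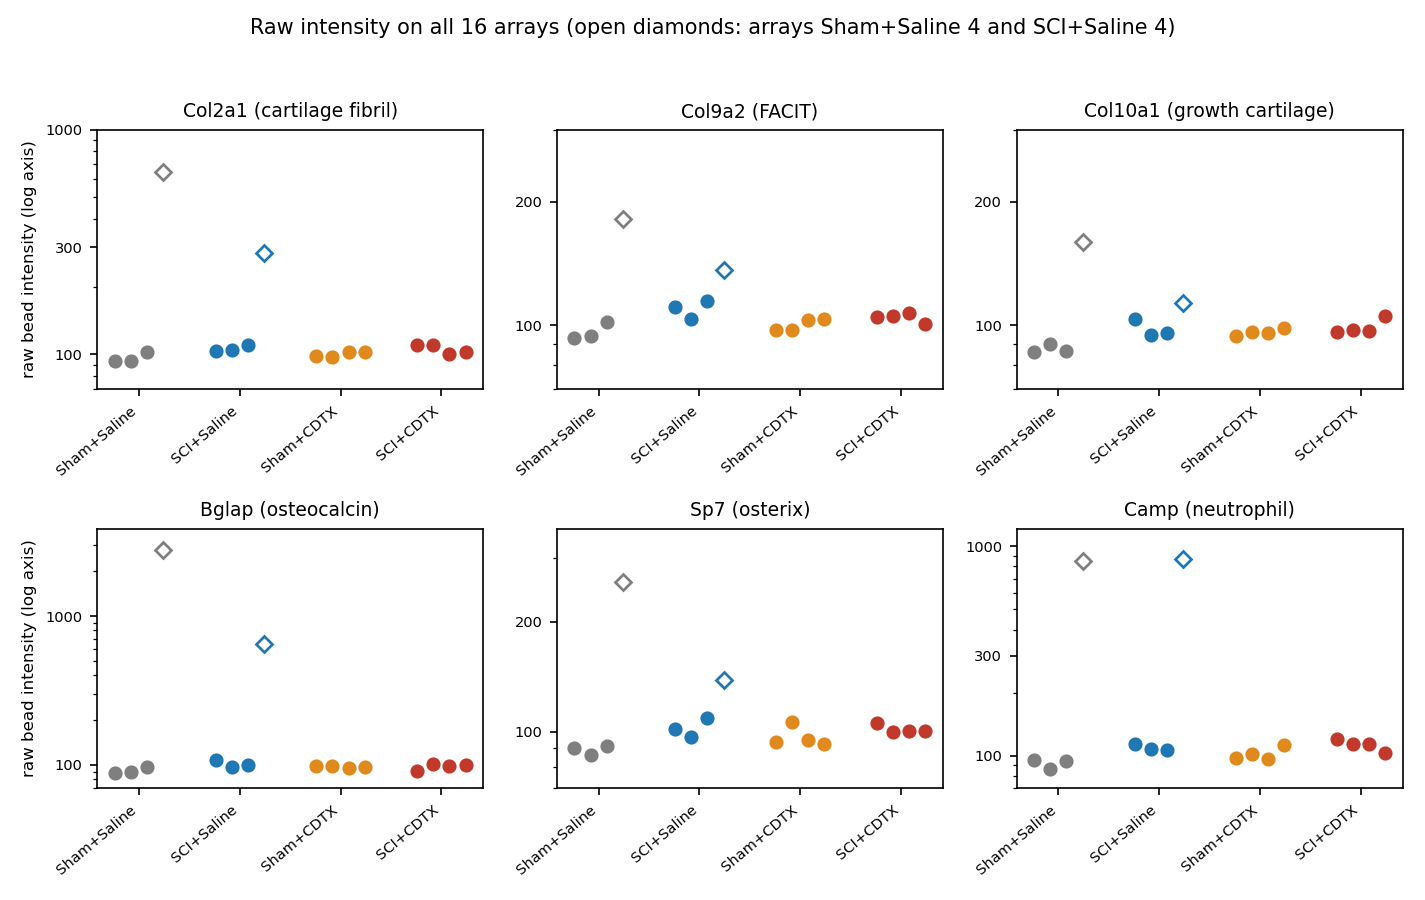
Raw bead intensity (log axis) of 3 cartilage collagens and of Bglap, Sp7 and Camp on all 16 arrays, 1 point per array. The open diamonds, Sham+Saline 4 and SCI+Saline 4, are the highest points in every panel, at 2766.8 and 649.3 for Bglap.

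Levels below are log2 normalized intensities, in which a difference of 1 is a fold change of 2 and in which an offset of 16 understates the change of dim probes. Each gene is described by its brightest tested probe, and a difference is called at a limma adjusted p under 0.05 over all 14763 tested probes. In bulk muscle, fewer cells of a type and less RNA per cell cannot be told apart.

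Cardiotoxin in mice with spinal cord injury went with higher levels of 11 collagen genes, some of them in each class. Of the 29 collagen genes, 11 were called higher and 1 lower in SCI+CDTX than in SCI+Saline, which is 37.9% higher, against 22.2% of the 10842 tested genes called higher and 22.2% called lower. Over probes the counts were 14 higher and 1 lower of 35, against 20.4% higher and 22.5% lower (42.9% called) of all probes. The median log2 fold change of the 29 genes was 0.33, against -0.04 over all genes, and 0.5 without Sham+Saline 4 and SCI+Saline 4. The genes called higher were 3 of 11 fibrillar (Col1a2, Col3a1, Col5a1), 2 of 4 basement membrane (Col4a1, Col4a2), 2 of 6 FACIT (Col14a1, Col16a1) and 4 of 8 other genes (Col6a1, Col6a2, Col15a1, Col18a1). The gene called lower, Col9a1, a cartilage FACIT chain near the detection limit, fell by 0.43 ± 0.16 (SE; limma adjusted p = 0.0413), and this call was lost, among others, without SCI+Saline 4 and under median scaling.

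In sham-operated mice, cardiotoxin went with higher levels of 6 collagen genes. In Sham+CDTX, these 6 of the 29 genes were called higher than in Sham+Saline and 0 lower, which is 20.7% higher, against 23.9% of all genes higher and 26.8% lower. Over probes, 6 of 35 were higher and 1 lower, against 23.1% and 25.8% (48.9% called). The share of collagens called higher was thus near that of all genes, and the median log2 fold change was 0.11, against -0.05. The 6 were Col1a1, Col3a1, Col4a1, Col14a1, Col6a1 and Col6a2. Without Sham+Saline 4, 9 genes were called higher and 1 lower, with Col1a2, Col5a1 and Col16a1 added and Col7a1 lower (-0.55, limma adjusted p = 0.0412). Of all 14648 probes, 3287 were then called higher (22.4%) and 3797 lower. In the fit that holds the score, none of the 7 called probes kept its call, and 3 others were called higher. Of all 14955 probes of that fit, 1652 were called higher and 1384 lower.

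Spinal cord injury with saline went with lower levels across the classes. Of the 29 genes, 13 were called lower and 1 higher in SCI+Saline than in Sham+Saline, which is 44.8% lower, against 15.8% of all genes lower and 14.7% higher. Over probes, 16 of 35 were lower and 1 higher, against 14.6% and 14.8% (29.5% called). The median log2 fold change was -0.44, against -0.02 over all genes. It was -0.28 without Sham+Saline 4 and -0.56 without SCI+Saline 4. The 13 were Col1a1, Col5a1, Col5a3 and Col24a1 among 11 fibrillar genes, Col4a1, Col4a2 and Col4a5 among 4 basement membrane genes, Col14a1 and Col16a1 among 6 FACIT genes, and Col6a1, Col6a2, Col15a1 and Col18a1 among 8 others. Without Sham+Saline 4, 10 were called lower, while 2032 of all 14648 probes were called lower and 1988 higher. Under median scaling in place of quantile normalization, 8 of the 35 probes were called lower and 1 higher. Of all 14763 probes, 696 were then called lower and 4436 higher, instead of 2160 and 2190.

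Between the cardiotoxin groups, 6 of the 29 genes were called lower and 2 higher in SCI+CDTX than in Sham+CDTX, which is 20.7% lower, against 15.8% of all genes lower and 16.5% higher. Over probes, 9 of 35 were lower and 2 higher, against 14.9% each way (29.8% called). The median was -0.01, against 0.02. Lower were Col1a1, Col3a1, Col24a1, Col4a1, Col6a1 and Col15a1, and higher were Col18a1 and Col23a1. Col6a2 was called lower as well once Sham+Saline 4 was left out (-0.62, limma adjusted p = 0.0441). Once the score was added, 0 collagen probes were called by limma, with 5 at an unadjusted p under 0.05. Few probes of any kind were called in that fit, 258 of 14955, instead of 4393 of 14763 in the main fit. With the score the values were -0.48 for Col6a1, -0.9 for Col15a1 and 0.01 for Col4a1. As both comparisons of SCI with sham mice coincide with slide, what belongs to surgery and what to slide cannot be told apart.

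**Figure D2:**
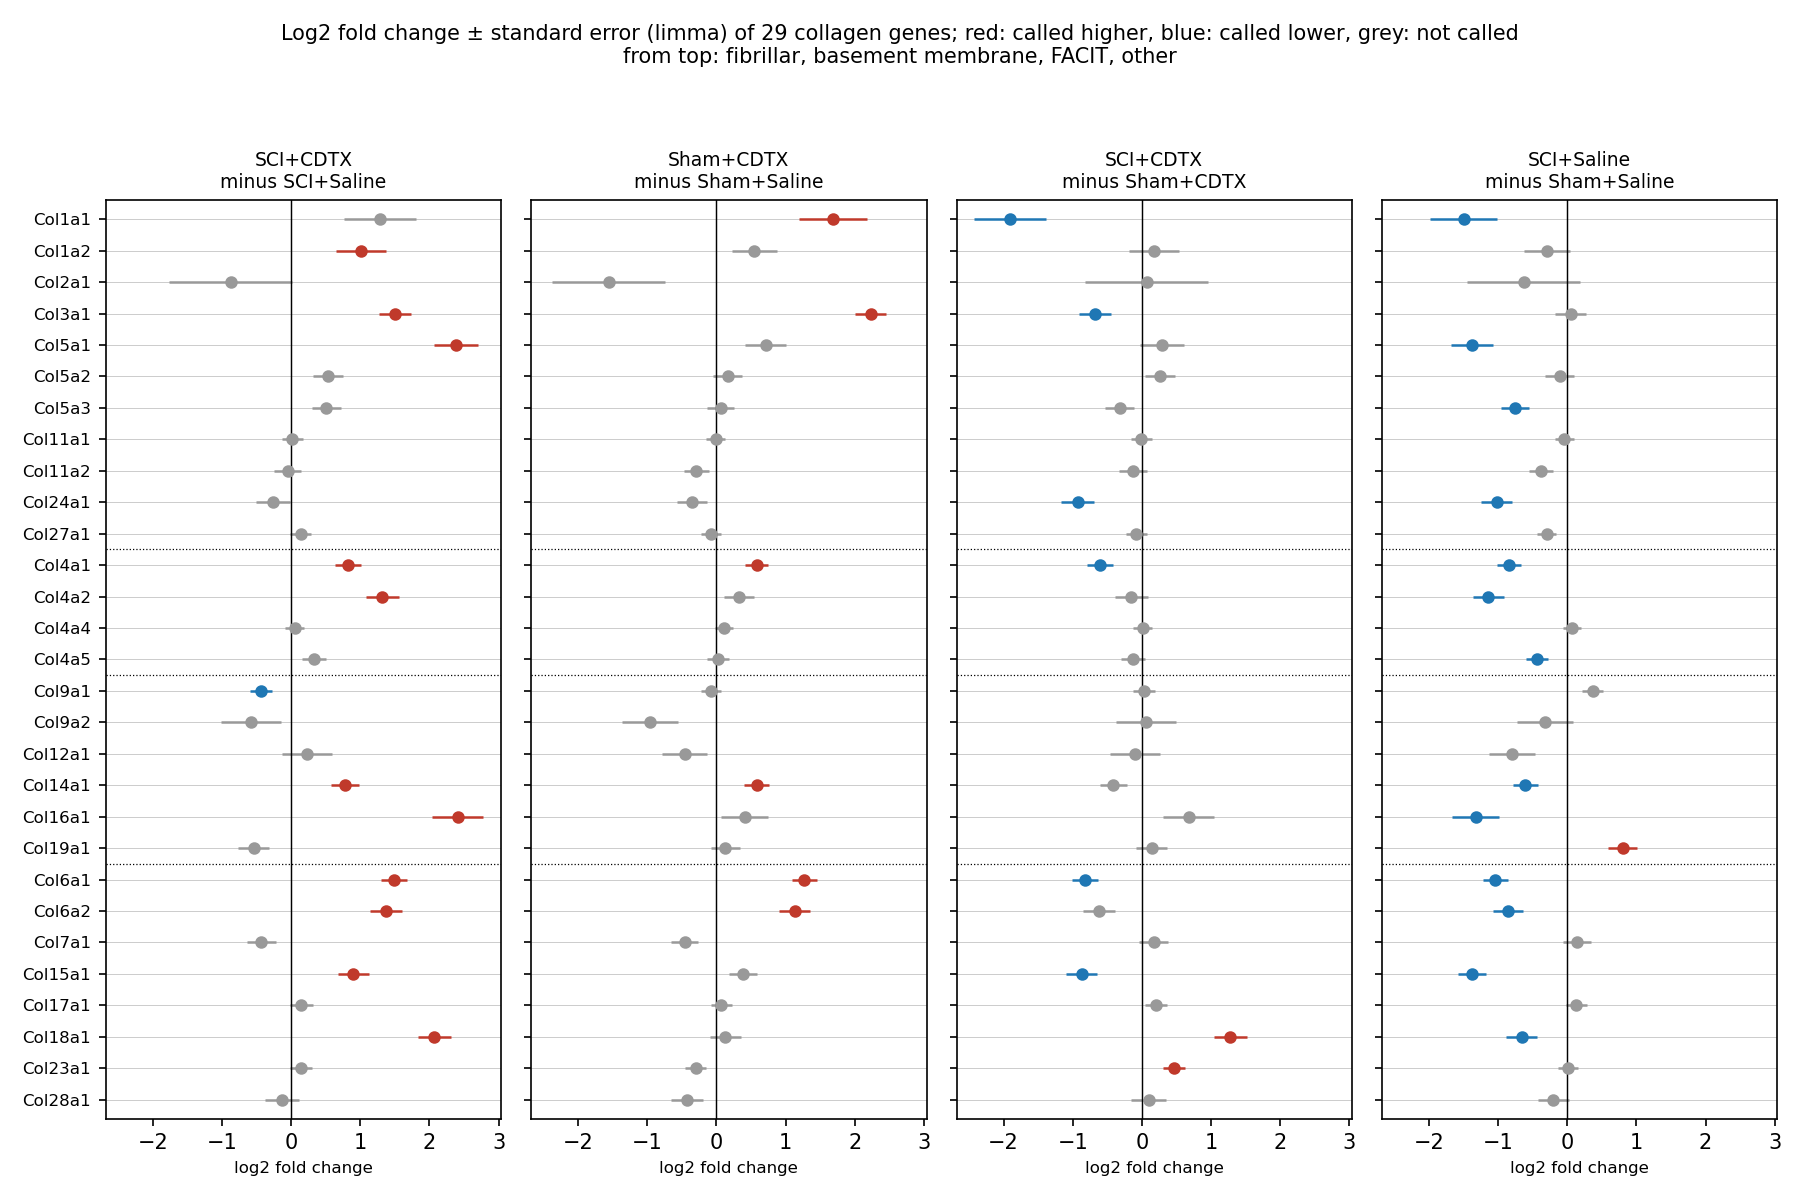
Log2 fold change with its standard error (bars) of the 29 tested collagen genes in the 4 comparisons, ordered by class. The called genes lie to the right in SCI+CDTX minus SCI+Saline (11 red, 1 blue) and to the left in SCI+Saline minus Sham+Saline (13 blue, 1 red).

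Scaling bears on these counts. Under median scaling the median over all probes was 0.06 for CDTX in SCI mice, 0.32 for CDTX in sham mice and 0.17 for SCI against sham with saline, instead of -0.05, -0.04 and -0.01. The share of called probes that were higher was then 64.9%, 85.1% and 86.4%, instead of 47.6%, 47.3% and 50.3%. Collagen probes called in sham mice with CDTX then numbered 18 higher and 1 lower of 35, while 45.4% of all tested probes were called higher there. Between the saline groups, the calls of Col1a1, Col4a1, Col14a1, Col16a1, Col6a2 and Col18a1 were lost.

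Type I collagen makes up most of the fibrils of tendon, bone and scar. Its chain Col1a1 read 9.31, 9.35, 9.28 and 11.96 on the Sham+Saline arrays, 7.99, 8.72, 7.55 and 9.64 in SCI+Saline, 11.54, 11.47, 11.99 and 11.67 in Sham+CDTX, and 9.56, 10.3 and 9.43 in SCI+CDTX. All Sham+CDTX arrays were high, 3 of 4 Sham+Saline arrays lay far below them, and Sham+Saline 4, the array with bone and cartilage transcripts, reached the Sham+CDTX level. The log2 difference between Sham+CDTX and Sham+Saline was 1.69 ± 0.49 (SE; limma adjusted p = 0.00719) and, without Sham+Saline 4, 2.35 ± 0.34 (1.62e-05). It was 0.12 and not called once the score was in the fit.

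SCI+CDTX lay below Sham+CDTX in Col1a1 on all arrays, by a log2 difference of -1.9 ± 0.52 (SE; limma adjusted p = 0.00984), or 3.74-fold. After the score was added this difference was -0.79 and no longer called. SCI+CDTX against SCI+Saline differed by 1.29 ± 0.52 in Col1a1 and missed the threshold (limma adjusted p = 0.0546), with SCI+Saline 4 inside the SCI+CDTX range. Without Sham+Saline 4 and SCI+Saline 4 it was 1.67 ± 0.25 (adjusted p = 3.46e-05), and it was called too without the first alone (adjusted p = 0.00465) or the second alone (adjusted p = 0.011). The lower Col1a1 in SCI+Saline than in Sham+Saline, -1.5 ± 0.49 (limma adjusted p = 0.0258), was -0.84 ± 0.34 without Sham+Saline 4 and not called (adjusted p = 0.0737).

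Its partner chain Col1a2 (chromosome 6) read 8.32, 8.65, 8.37 and 10.13 in Sham+Saline, 8.55, 8.13, 8.37 and 9.24 in SCI+Saline, 9.97, 9.26, 9.44 and 9.01 in Sham+CDTX, and 9.12, 9.65 and 9.99 in SCI+CDTX. Sham+Saline 4 lay above every other array and SCI+Saline 4 inside the range of the CDTX groups, while the other saline arrays lay below all CDTX arrays. Col1a2 was 2.02-fold higher in SCI+CDTX than in SCI+Saline (log2 1.01 ± 0.36 SE, limma adjusted p = 0.0297), a call that was lost without SCI+CDTX 3 or 4 and without SCI+Saline 1, 2 or 3. In sham mice the difference was 0.55 ± 0.33 (adjusted p = 0.185), and without Sham+Saline 4 it was 0.97 ± 0.26 (adjusted p = 0.00449). Between Sham+CDTX and SCI+CDTX the Col1a2 arrays overlapped.

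Type III collagen, the fibrillar collagen that is laid down early in repair, had the largest called change of any collagen in sham mice. Col3a1 (chromosome 1, probe at base 4642) read 8.72, 9.01, 9.3 and 9.44 in Sham+Saline, 9.19, 8.73, 9.32 and 9.44 in SCI+Saline, 11.89, 11.39, 10.95 and 11.17 in Sham+CDTX, and 10.39, 10.57 and 11.06 in SCI+CDTX. Every CDTX array lay above every saline array. The CDTX difference was 2.23 ± 0.22 in sham mice (SE; limma adjusted p = 1.66e-07), 4.7-fold, and 1.5 ± 0.23 in SCI mice (adjusted p = 5.98e-05), 2.83-fold. Given the score, the value in sham mice was 1.54 and not called, and that in SCI mice 1.48 and called. SCI+CDTX was 0.68 lower than Sham+CDTX on the log2 scale, a call (limma adjusted p = 0.0349) that was lost with all 16 arrays (a difference of -0.5) and without SCI+CDTX 1 or 3 or Sham+CDTX 1 or 2.

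A second Col3a1 probe, at base 268 of the transcript, gave another order of the groups. Its sequence is shown because the results of the 2 probes differ.
Col3a1, base 268: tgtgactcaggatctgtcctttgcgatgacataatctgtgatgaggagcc
This probe read 6.45, 6.09, 6.65 and 7.02 in Sham+Saline, 5.04, 4.41, 4.74 and 6.02 in SCI+Saline, 7.16, 6.77, 7.15 and 7.24 in Sham+CDTX, and 5.44, 6.65 and 6.06 in SCI+CDTX. All SCI+Saline arrays lay below all Sham+Saline arrays, by a log2 difference of -1.5 ± 0.29 (SE; limma adjusted p = 0.000755), whereas the brighter probe gave 0.05 ± 0.22. For CDTX in sham mice this probe gave 0.53 ± 0.29 (adjusted p = 0.15), against 2.23 for the other. In SCI mice both probes were called higher with CDTX, at 1 and 1.5.

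Type V collagen starts type I fibrils and limits their width. Col5a1 (chromosome 2) read 8.82, 9.41, 9.3 and 10.24 in Sham+Saline, 7.82, 7.49, 7.91 and 9.03 in SCI+Saline, 10.37, 10, 10.3 and 9.94 in Sham+CDTX, and 10.01, 10.88 and 10.44 in SCI+CDTX. SCI+Saline had the lowest mean, with SCI+Saline 4 inside the Sham+Saline range, and SCI+CDTX and Sham+CDTX overlapped at the top. The difference between SCI+CDTX and SCI+Saline was 2.38 ± 0.32 (SE; limma adjusted p = 1.5e-05), 5.22-fold. In sham mice it was 0.71 ± 0.3 (adjusted p = 0.0561), and it was called without Sham+Saline 4 (0.97 ± 0.28, adjusted p = 0.00808) and without SCI+Saline 4 (0.71, adjusted p = 0.0186). SCI+Saline was 2.61-fold below Sham+Saline (log2 -1.38 ± 0.3, limma adjusted p = 0.00174).

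The other type V chains changed less. Col5a2 was dim, at 4.47 to 5.63 over all arrays, and was called in none of the comparisons, with 0.53 ± 0.22 for CDTX in SCI mice (SE; limma adjusted p = 0.063). Without Sham+Saline 4 and SCI+Saline 4 that difference was 0.74 ± 0.19 and called (adjusted p = 0.00329), as it was without the first alone (adjusted p = 0.0428) or the second alone (adjusted p = 0.00841). Col5a3 was lower in SCI+Saline than in Sham+Saline, by -0.76 ± 0.2 (adjusted p = 0.00637), and without SCI+Saline 4 it was called higher with CDTX in SCI mice (0.65, adjusted p = 0.017). Col24a1, a minor fibrillar collagen known from bone, was lower in both SCI groups. It read 5.04, 5.6, 5.72 and 6.3 in Sham+Saline, 5.44, 5.63, 5.11 and 5.06 in Sham+CDTX, 4.64, 4.23, 4.66 and 5.04 in SCI+Saline, and 4.31, 4.37 and 4.45 in SCI+CDTX. It was not detected on any SCI+CDTX array of the fit, and was at least 1.7-fold lower there than in Sham+CDTX (limma adjusted p = 0.00571). For such a bound, each array of the dim group counts with its own signal for the probe or with the dimmest signal detected on that array, whichever is brighter. The second tested Col24a1 probe gave the same direction, with SCI+Saline 2.09-fold below Sham+Saline (limma adjusted p = 2.29e-05). It was also the 1 collagen probe called lower for CDTX in sham mice, with a mean of 5.12 in Sham+CDTX and 5.7 in Sham+Saline. Col11a1, Col11a2 and Col27a1, fibrillar chains of cartilage and other tissues, lay near the detection limit and were called in no comparison of the 15 arrays. Without SCI+Saline 4, Col11a2 was called lower in SCI+Saline than in Sham+Saline (-0.55, limma adjusted p = 0.0205).

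**Figure D3:**
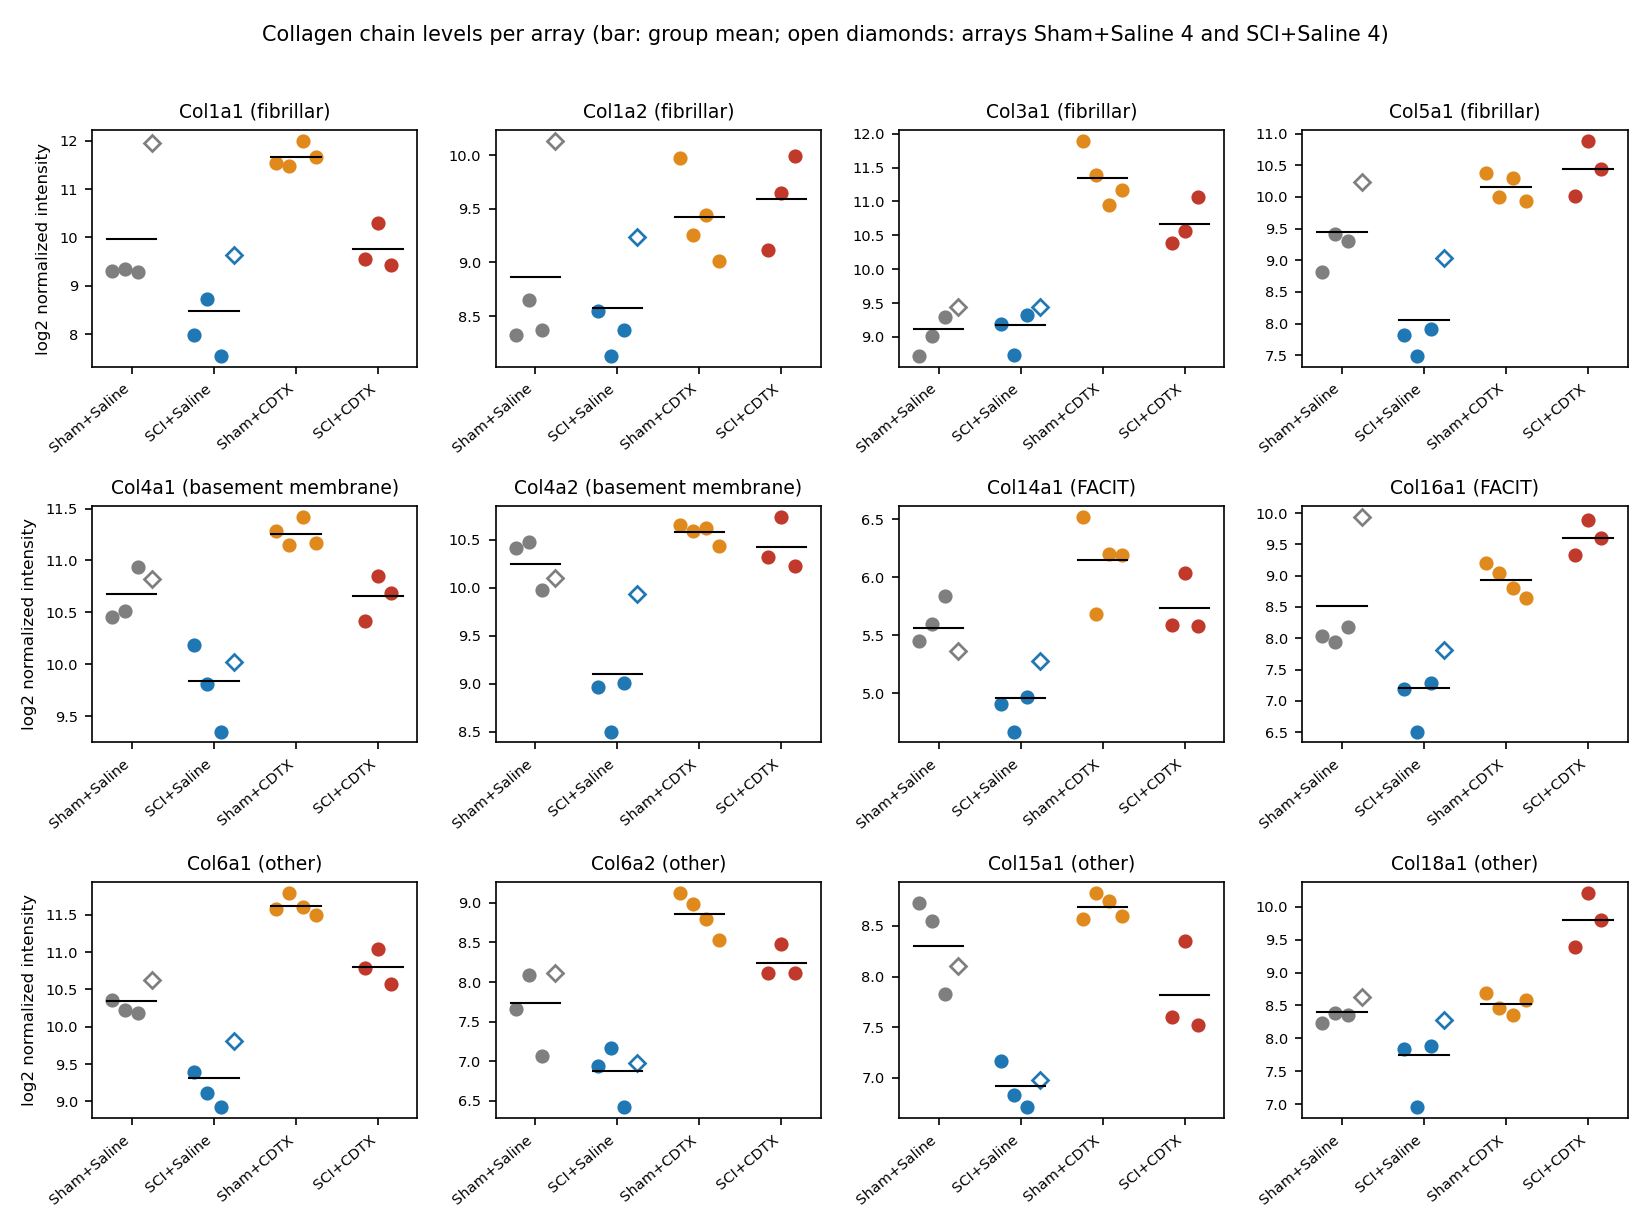
Log2 normalized intensity of 12 collagen genes on the 15 arrays of the fit, by group, with the group mean as a bar. SCI+Saline has the lowest mean in every panel but Col3a1, where both saline groups lie at 8.72 to 9.44, and Sham+Saline 4 (open diamond) stands high in Col1a1, Col1a2 and Col16a1.

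Type IV collagen, the network of basement membranes, was lower after spinal cord injury and higher after cardiotoxin in SCI mice. Col4a1 read 10.45, 10.51, 10.94 and 10.82 in Sham+Saline, 10.18, 9.81, 9.35 and 10.02 in SCI+Saline, 11.28, 11.15, 11.42 and 11.17 in Sham+CDTX, and 10.42, 10.85 and 10.69 in SCI+CDTX. SCI+Saline lay below and Sham+CDTX above all other arrays, while Sham+Saline and SCI+CDTX overlapped. The CDTX difference in Col4a1 was 0.82 ± 0.19 in SCI mice (SE; limma adjusted p = 0.0017) and 0.58 ± 0.17 in sham mice (adjusted p = 0.00993). The value in sham mice was -0.27 with the score in the fit, a turn of direction. SCI+Saline was 1.79-fold below Sham+Saline (log2 -0.84 ± 0.17, limma adjusted p = 0.00118), and under median scaling this was -0.38 and not called.

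Col4a2, whose start lies 21 bases from that of Col4a1, read 10.42, 10.48, 9.98 and 10.1 in Sham+Saline, 8.97, 8.5, 9.01 and 9.94 in SCI+Saline, 10.66, 10.59, 10.62 and 10.44 in Sham+CDTX, and 10.32, 10.74 and 10.23 in SCI+CDTX. All SCI+Saline arrays were below all others, with SCI+Saline 4 closest to them. Col4a2 was 2.5-fold higher in SCI+CDTX than in SCI+Saline (log2 1.32 ± 0.24 SE, limma adjusted p = 0.000254) and 2.21-fold lower in SCI+Saline than in Sham+Saline (log2 -1.14 ± 0.22, adjusted p = 0.000768). For CDTX in sham mice it gave 0.33 ± 0.22 (adjusted p = 0.237). Both chains were thus called higher with CDTX in SCI mice and lower in SCI+Saline than in Sham+Saline. Of the pair, only Col4a1 was called for CDTX in sham mice and between the CDTX groups, and only Col4a2 in the interaction. Of the other chains, which form type IV networks of kidney, lung and skin, Col4a5 was not detected in SCI+Saline and at least 1.1-fold lower there than in Sham+Saline (adjusted p = 0.0461). This call was lost without Sham+Saline 4 (adjusted p = 0.105) and without SCI+Saline 4 (adjusted p = 0.0683). Col4a4 was called in no comparison, and Col4a3 and Col4a6 did not pass the detection filter.

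Among the FACITs, Col16a1 (chromosome 4) had the largest fold change of any tested collagen for CDTX in SCI mice. It read 8.03, 7.94, 8.18 and 9.94 in Sham+Saline, 7.19, 6.51, 7.29 and 7.81 in SCI+Saline, 9.2, 9.04, 8.81 and 8.65 in Sham+CDTX, and 9.33, 9.89 and 9.6 in SCI+CDTX. SCI+Saline was lowest and SCI+CDTX highest, apart from Sham+Saline 4, which lay above every other array. SCI+CDTX exceeded SCI+Saline 5.31-fold (log2 2.41 ± 0.37 SE, limma adjusted p = 4.89e-05), and SCI+Saline lay 2.5-fold below Sham+Saline (log2 -1.32 ± 0.34, adjusted p = 0.00649). The latter was -0.85 ± 0.23 without Sham+Saline 4 (adjusted p = 0.0105). In sham mice the CDTX difference was 0.41 ± 0.34 (adjusted p = 0.347), and without Sham+Saline 4 it was 0.88 ± 0.23 and called (adjusted p = 0.00432). On the arrays of the fit, SCI+CDTX and Sham+CDTX did not overlap. Their difference of 0.68 ± 0.37 was not called (adjusted p = 0.186) unless Sham+Saline 4 was left out (adjusted p = 0.0329). The excluded SCI+CDTX 2 read 8.15 after normalization of all 16 arrays, below the Sham+CDTX arrays at 8.68 to 9.23.

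Col14a1 (chromosome 15), which coats fibrils in dense connective tissue, was called higher with CDTX in both kinds of mice, by 0.78 ± 0.2 in SCI (SE; limma adjusted p = 0.00371) and 0.58 ± 0.18 in sham mice (adjusted p = 0.0132). The value in sham mice was not called without Sham+CDTX 1, and was 1.14 and not called with the score (adjusted p = 0.0889). Its SCI+Saline arrays, at 4.67 to 5.28, lay below the Sham+Saline arrays at 5.36 to 5.84. Col12a1, the related FACIT of tendon and bone surfaces, read 5.18, 5.22, 5.72 and 7.49 in Sham+Saline and 4.99 to 5.54 on the other 11 arrays. The high value is again Sham+Saline 4, and Col12a1 was called in no comparison. Col19a1, a FACIT found at basement membrane zones, was the only collagen called higher in SCI+Saline than in Sham+Saline. It was not detected on any Sham+Saline array and was at least 1.3-fold higher in SCI+Saline (limma adjusted p = 0.00618), although 1 of the 4 SCI+Saline arrays (4.46) lay inside the Sham+Saline range of 4.32 to 4.54.

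Type VI collagen forms beaded filaments next to the basement membrane of muscle fibres, and its loss causes inherited muscle disease. Col6a1 (chromosome 10, probe at base 3706) read 10.36, 10.22, 10.19 and 10.63 in Sham+Saline, 9.4, 9.11, 8.92 and 9.81 in SCI+Saline, 11.58, 11.8, 11.6 and 11.5 in Sham+CDTX, and 10.79, 11.04 and 10.57 in SCI+CDTX. The groups ran from SCI+Saline over Sham+Saline and SCI+CDTX to Sham+CDTX, and only Sham+Saline and SCI+CDTX overlapped. Col6a1 rose with CDTX by 1.49 ± 0.19 in SCI mice (SE; limma adjusted p = 8.64e-06) and by 1.27 ± 0.18 in sham mice (adjusted p = 9.17e-06). SCI+Saline was 2.06-fold below Sham+Saline (adjusted p = 0.000207) and SCI+CDTX 1.76-fold below Sham+CDTX (adjusted p = 0.00307).

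Another Col6a1 probe, at base 3903, ordered the CDTX groups differently. It read 9.76, 9.88, 9.91 and 10.41 in Sham+Saline, 8.93, 8.67, 8.89 and 9.29 in SCI+Saline, 10.55, 10.52, 10.12 and 10.13 in Sham+CDTX, and 10.52, 10.92 and 10.8 in SCI+CDTX. Here SCI+CDTX lay at the top and within reach of Sham+CDTX, with a difference of 0.41 ± 0.19 (SE; limma adjusted p = 0.111), against -0.82 for the first probe. For CDTX in sham mice it gave 0.34 ± 0.17 (adjusted p = 0.116), against 1.27. In SCI mice both probes were called, at 1.8 and 1.49. A dim probe at base 788 was called in 1 comparison only, lower in SCI+CDTX than in Sham+CDTX by -0.61 ± 0.21 (adjusted p = 0.0339).

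**Figure D4:**
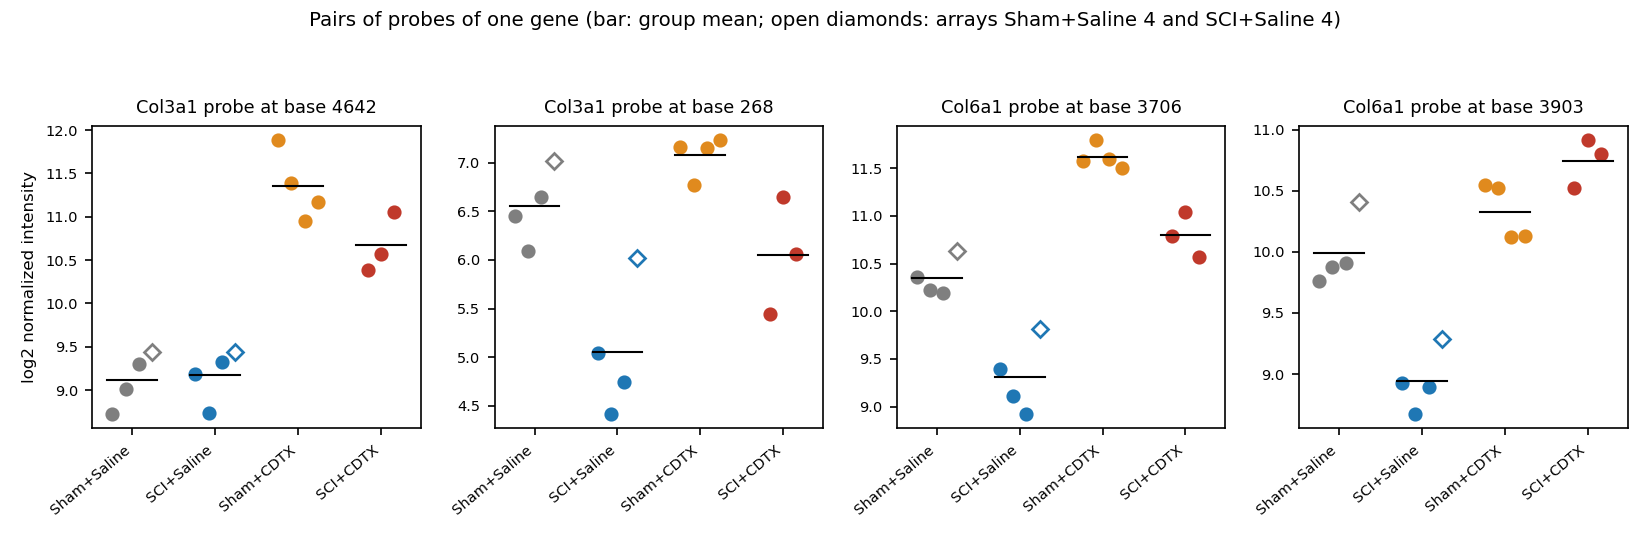
Log2 normalized intensity of 2 probes each of Col3a1 and Col6a1 on the 15 arrays, by group, with group means as bars. In each pair the probes differ in where Sham+CDTX lies relative to the other groups: 11.35 against 9.12 in Sham+Saline for Col3a1 at base 4642, but 7.08 against 6.55 at base 268.

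Col6a2 (chromosome 10) has 1 probe and rose with CDTX in SCI mice by 1.37 ± 0.23 (SE; limma adjusted p = 0.000141) and in sham mice by 1.13 ± 0.22 (adjusted p = 0.000263). It read 7.66, 8.09, 7.07 and 8.11 in Sham+Saline, 6.94, 7.17, 6.42 and 6.98 in SCI+Saline, 9.13, 8.99, 8.8 and 8.53 in Sham+CDTX, and 8.12, 8.48 and 8.12 in SCI+CDTX. Its order of groups was that of the first Col6a1 probe. Given the score, the values for CDTX in sham mice were 0.64 for Col6a2 and 0.81 for Col6a1, neither of them called.

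The multiplexins XV and XVIII lie at basement membranes of vessels and muscle fibres, and the end of type XVIII is released as endostatin. Col18a1 (chromosome 10) read 8.23, 8.38, 8.35 and 8.63 in Sham+Saline, 7.84, 6.95, 7.89 and 8.28 in SCI+Saline, 8.69, 8.46, 8.36 and 8.59 in Sham+CDTX, and 9.39, 10.22 and 9.8 in SCI+CDTX. SCI+CDTX lay above all other arrays, and the sham groups overlapped. Col18a1 was 4.19-fold higher in SCI+CDTX than in SCI+Saline (log2 2.07 ± 0.24 SE, limma adjusted p = 3.88e-06) and 2.43-fold higher than in Sham+CDTX (log2 1.28 ± 0.24, adjusted p = 0.000562). In sham mice the CDTX difference was 0.13 ± 0.22 (adjusted p = 0.672). SCI+Saline lay below Sham+Saline by -0.66 ± 0.22 (adjusted p = 0.0318), a call lost without Sham+Saline 4 (adjusted p = 0.0816). A second, dimmer probe gave 0.89 ± 0.18 for CDTX in SCI mice (adjusted p = 0.000592) and 0.17 ± 0.17 in sham mice (adjusted p = 0.42). On SCI+CDTX 2, the excluded array with a high probe difference score, Col18a1 read 8.57 after normalization of all 16 arrays. In the fit that holds the score, Col18a1 was 0.22 lower in SCI+CDTX than in Sham+CDTX on the log2 scale, and the CDTX difference in sham mice was 2.01 and called (adjusted p = 0.0151).

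Col15a1 (chromosome 4) had another pattern. It read 8.73, 8.55, 7.83 and 8.1 in Sham+Saline, 7.17, 6.83, 6.71 and 6.98 in SCI+Saline, 8.57, 8.83, 8.75 and 8.6 in Sham+CDTX, and 7.6, 8.35 and 7.52 in SCI+CDTX. Both SCI groups lay below the Sham+CDTX arrays, and SCI+Saline lay below all other arrays. SCI+Saline was 2.6-fold below Sham+Saline (log2 -1.38 ± 0.2 SE, limma adjusted p = 4.74e-05), SCI+CDTX 1.82-fold below Sham+CDTX (log2 -0.87 ± 0.22, adjusted p = 0.00548), and SCI+CDTX 1.86-fold above SCI+Saline (log2 0.9 ± 0.22, adjusted p = 0.00264). Col23a1, a transmembrane collagen, was higher in SCI+CDTX than in Sham+CDTX by 0.46 ± 0.16 (adjusted p = 0.0373), a call that was lost when any Sham+CDTX array was left out. Col7a1, the anchoring fibril of skin, Col17a1 and Col28a1 were called in no comparison of the 15 arrays.

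Whether cardiotoxin acted differently in SCI and sham mice was tested as the interaction, the CDTX difference in SCI mice minus that in sham mice, in which an additive slide effect cancels. Of the 29 genes, 4 were called, all of them higher, which is 13.8%, against 13.9% of all genes higher and 11.7% lower. Over probes, 6 of 35 were higher, against 12% higher and 11.6% lower (23.6% called). The share was near that of all genes, and the median was 0.24, against 0.01. Col16a1 gave 2 ± 0.5 (SE; limma adjusted p = 0.00706), Col18a1 1.94 ± 0.33 (adjusted p = 0.00036), Col5a1 1.67 ± 0.44 (adjusted p = 0.00965) and Col4a2 0.99 ± 0.33 (adjusted p = 0.0354). Col16a1 gave 1.53 ± 0.33 without Sham+Saline 4 (adjusted p = 0.00278), and Col23a1 was called as well without SCI+Saline 4 (0.58, adjusted p = 0.0411). The other 2 called probes were the second Col18a1 probe and the Col6a1 probe at base 3903, at 1.46 ± 0.26 (adjusted p = 0.000478), while the brighter Col6a1 probe gave 0.22 ± 0.26 (adjusted p = 0.592). With the score in the fit the values were 0.31 for Col16a1, 0.28 for Col18a1, 0 for Col5a1 and 0.57 for Col4a2. Limma then called 0 collagen probes, with 1 at an unadjusted p under 0.05. Of all probes it called 43 of 14955 in that fit, instead of 3483 of 14763 in the main fit. With all 16 arrays, Col18a1 kept its call (1.62, adjusted p = 0.0189), while Col16a1 (1.63, adjusted p = 0.0739), Col5a1 (1.29, 0.119) and Col4a2 (0.94, 0.0675) did not. Under median scaling the median of all probes was -0.24 and 17.7% of the called probes were higher, instead of 51%. Col18a1 then gave 1.4 (adjusted p = 0.00875), and Col3a1 was called lower, at -1.28 (adjusted p = 0.0132), against -0.73 and no call under quantile normalization.

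Genes that make, process and bind collagen were read beside the chains, from a list of 41, of which 31 were tested. Of these, 17 were called higher and 1 lower in SCI+CDTX than in SCI+Saline, which is 54.8% higher, against 22.2% of all genes. For Sham+CDTX against Sham+Saline, 15 were higher and 6 lower, which is 48.4% and 19.4%, against 23.9% and 26.8% of all genes. Between the CDTX groups, 5 were higher and 3 lower in SCI+CDTX, which is 16.1% and 9.68%, against 16.5% and 15.8%, so that the share called higher was near that of all genes. In SCI+Saline against Sham+Saline, 10 were lower (32.3%, against 15.8%) and none higher (14.7% of all genes). The medians were 0.58, 0.26, -0.02 and -0.22 on the log2 scale, against -0.04, -0.05, 0.02 and -0.02 over all genes. The chaperones Serpinh1 (HSP47) and Fkbp10 were called higher with CDTX in both kinds of mice, as were the cross-linking enzymes Lox and Loxl1, 2 of 3 tested. Lox, lysyl oxidase, rose by 1.94 ± 0.3 in SCI mice (SE; limma adjusted p = 5.73e-05) and by 2.7 ± 0.28 in sham mice (adjusted p = 3.14e-07). Bgn, biglycan, a small proteoglycan on collagen fibrils, rose by 2.4 ± 0.27 (adjusted p = 2.38e-06) and 1.26 ± 0.25 (adjusted p = 0.000318), and Fkbp10 by 1.75 ± 0.25 in sham mice (adjusted p = 1.04e-05). With the score in the fit, the values in sham mice were 1.96 for Lox (adjusted p = 0.048) and 2.53 for Bgn (adjusted p = 0.0135), both called, and 1.6 for Fkbp10, which was not (adjusted p = 0.076).

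Of the 12 tested chain modification genes, 6 were called higher and 1 lower with CDTX in SCI mice, and 6 higher and 4 lower in sham mice. In SCI mice this is 50% and 8.33%, against 22.2% each way of all genes. In sham mice it is 50% and 33.3%, against 23.9% and 26.8%, so that the share called lower was near that of all genes. P4ha2, a prolyl hydroxylase subunit, was called lower in both, by -0.43 ± 0.15 (SE; limma adjusted p = 0.0246) and -0.69 ± 0.14 (adjusted p = 0.000368). Bmp1, the protease that removes the end piece of fibrillar chains, went opposite ways, at 2.04 ± 0.22 with CDTX in SCI mice (limma adjusted p = 1.84e-06) and -1.18 ± 0.2 in sham mice (adjusted p = 8.22e-05), an interaction of 3.21 ± 0.3. With the score in the fit the value in sham mice was 2.24 and called higher (limma adjusted p = 0.00882), opposite to the main fit. On SCI+CDTX 2, on which that fit largely rests, Bmp1 read 7.14 after normalization of all 16 arrays. The other SCI+CDTX arrays read 9.18 to 9.82 when normalized without it. The hydroxylases Plod3 and P3h1 were called in the interaction as well, at 1.96 ± 0.29 and 1.58 ± 0.23, and both turned direction with the score in the fit. Fmod, fibromodulin, fell by 0.91 with CDTX in sham mice (adjusted p = 0.00824). With the score, P4ha2 gave -0.17 and Fmod -0.69 in sham mice, neither of them called. In SCI+Saline against Sham+Saline, the collagen receptor chain Itga11 fell by 1.27 ± 0.21 (adjusted p = 0.00014) and Sparc, a collagen-binding matrix protein, by 1.12 ± 0.21 (adjusted p = 0.000637). In SCI+CDTX against Sham+CDTX, Plod2, which hydroxylates lysines for cross-links, fell by 1.03 ± 0.2 (adjusted p = 0.000848), Itga11 by 0.65 and P3h3 by 0.55. With the score the values were -0.71, -1.07 and -0.4. Limma then called 0 of the pathway genes between the CDTX groups, with 7 at an unadjusted p under 0.05, and 258 of all 14955 probes.

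Markers of the cells that make or surround collagen moved with the groups. For scale, 22.2% of all genes were called higher and 22.2% lower with CDTX in SCI mice. In sham mice with CDTX these shares were 23.9% and 26.8%, and in SCI+Saline against Sham+Saline 14.7% and 15.8%. For the markers, values from the fit that holds the score are not given, which limits the comparisons with Sham+CDTX. The 6 fibroblast markers (Pdgfra, Ly6a, Dpt, Pi16, Cd34, Gsn) were all tested, and 5 were called higher with CDTX in SCI mice, while 3 were called lower in SCI+Saline than in Sham+Saline. With CDTX in sham mice, Pdgfra (1.38), Ly6a (1.28) and Dpt (0.69) were called higher and Pi16 (-1.57) and Gsn (-0.88) lower, with a list median of 0.13. Their summed normalized intensity was 2450 to 4530 in SCI+Saline, 3360 to 4990 in Sham+Saline, 5430 to 7470 in SCI+CDTX and 7590 to 8280 in Sham+CDTX. Most of this sum came from Ly6a, and without it the sums were 833 to 1230, 1480 to 1990, 1720 to 2140 and 1860 to 2330. All 5 macrophage markers were called higher with CDTX in SCI and in sham mice, with sums of 650 to 3240 in SCI+Saline, 757 to 1640 in Sham+Saline, 10700 to 15900 in SCI+CDTX and 12100 to 14600 in Sham+CDTX.

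Of 5 endothelial markers, 4 were called lower in SCI+Saline than in Sham+Saline, against 15.8% of all genes. With CDTX in sham mice, 3 were called lower, against 26.8%, and in SCI mice 1 was called higher, against 22.2%. The sums of the 5 markers were 679 to 732 in SCI+Saline, 1080 to 1200 in Sham+Saline, 801 to 1010 in SCI+CDTX and 754 to 827 in Sham+CDTX. Of 4 pericyte and smooth muscle markers, 2 were called lower in SCI+Saline than in Sham+Saline and 3 lower with CDTX in sham mice, with sums of 1540 to 2140, 3060 to 3670, 2280 to 4130 and 1910 to 2460 in the same order of groups. With CDTX in SCI mice, 2 of these 4 markers were called higher and 1 lower. Of 4 Schwann cell markers, 3 were tested and 1 was called lower in SCI+Saline than in Sham+Saline. No muscle fibre marker of 5 was called between SCI+CDTX and SCI+Saline. Acta1, Ckm, Myh4 and Tnnt3 read 13.56 to 14.23 on all arrays of the fit. Whether probes this bright can still show a change was not tested. In sham mice with CDTX, Pygm, muscle glycogen phosphorylase, fell by 1.33 ± 0.26 (SE; limma adjusted p = 0.000303), and Myh4, a fast myosin heavy chain, rose by 0.35 ± 0.13 (adjusted p = 0.0363).

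Of 6 tendon markers 3 were tested, with sums of 682 to 1020 on the SCI arrays and 143 to 299 on the sham arrays, a split that coincides with slide. It lay in Scx, a transcription factor of tendon cells, which was higher by 3.03 ± 0.15 (SE) between the saline groups (limma adjusted p = 1.02e-10) and by 2.56 ± 0.17 between the CDTX groups (adjusted p = 1.1e-08). Fmod (-0.23 and 0.12) and Comp (-0.07 and 0.26) were not called. The sums of the 4 tested neutrophil markers were 79.6 to 10200 in Sham+Saline and 1980 to 12500 in SCI+Saline, with the fourth array of each group on top. The part of these cells in the collagen differences was not tested.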

How the data were processed

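RNA of 16 hamstring samples was measured on Illumina arrays. The deposited raw table holds, per the file headers, an average bead intensity and a detection p-value for each probe and array, written by GenomeStudio 2011.1 (per the submitters' processing notes) with GSGX 1.9.0 (per the file headers). The authors' final table, which per the file headers was background subtracted and scaled by GenomeStudio's average method, holds group mean intensities and difference p-values without SCI+CDTX 2, and was used as an alternative only.

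From the raw table, background was corrected by normexp from the detection p-values, arrays were quantile normalized and log2 was taken with an offset of 16 (neqc in limma 3.58.1, R 4.3.3). Probes detected at p under 0.05 on at least 3 of 15 arrays were kept, 14763 of 25697. Limma fitted 4 group means, tested 4 differences and the interaction, and p-values were Benjamini-Hochberg adjusted over all kept probes. The script was first tested on simulated data. Gene names came from the deposited probe table, with 4674 probes renamed to current RefSeq symbols through their Entrez number (23681 matched), which did not bear on the choice of collagens. A gene has the values of its brightest kept probe.

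The members, classes, the list of 41 pathway genes and the marker lists (muscle fibre, fibroblast, tendon, cartilage, bone, macrophage, neutrophil, endothelial, pericyte, Schwann cell) were chosen with earlier results of these data known. Among called collagens the 5 highest and 5 lowest of each comparison are named, besides a fixed set of common chains (Col1a1, Col1a2, Col3a1, Col5a1, Col5a2, Col4a1, Col4a2, Col12a1, Col14a1, Col6a1, Col6a2, Col15a1, Col18a1). For the pathway the 3 highest and 3 lowest are named. Other genes were named after their values were seen. Alternatives were all 16 arrays, the probe difference score, median scaling, no background correction, slides normalized separately, other detection filters, a trended variance, only the groups compared, a replicate block, the authors' table and each array left out. SCI+CDTX 2 stayed out of the fit as in the authors' final analysis.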

Additional observations from a re-analysis of the deposited data

Results flagged for a closer look

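Of 116 collagen groups of 4 arrays, 8 held an array far from the other 3, by a gap that Dixon's test places outside its 95% limit. Chance gives this in about 1 in 20 groups. In Sham+Saline, array 4 read 11.96 for Col1a1, against 9.28 to 9.35 on the others, 9.94 for Col16a1, against 7.94 to 8.18, and 9.46 for Col2a1, against 4.45 to 5.17. SCI+Saline 4 read 7.59 for Col2a1, against 4.34 to 4.68. These arrays are the 2 on which bone markers and the cartilage collagen Col10a1 were detected. The other 4 were Col28a1 on Sham+Saline 2, at 5.75 against 4.47 to 4.6, Col5a3 on Sham+Saline 3, at 5.22 against 5.81 to 5.89, and, after normalization of all 16 arrays, Col11a1 on SCI+CDTX 4, at 4.64 against 4.39 to 4.42, and Col9a2 on SCI+CDTX 3, at 4.56 against 4.31 to 4.35.

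The cardiotoxin difference was larger in SCI than in sham mice by the interaction term in limma for 4 collagen genes. This is 13.8% of the 29 tested collagen genes, near the 13.9% of all genes called higher. The log2 values were 2 for Col16a1 (adjusted p = 0.00706), 1.94 for Col18a1 (adjusted p = 0.00036), 1.67 for Col5a1 (adjusted p = 0.00965) and 0.99 for Col4a2 (adjusted p = 0.0354). None of the 4 was called in a fit that also holds the score of how far probes of a gene diverge. In that fit 43 of all 14955 probes were called in the interaction.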

How the results depend on the processing

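In the fit of all 16 arrays that holds the probe difference score, 3 instead of 7 collagen probes were called for CDTX in sham mice, 0 instead of 11 between the CDTX groups and 0 instead of 6 in the interaction, and the pathway genes called were 11 instead of 21, 0 instead of 8 and 0 instead of 5. Limma's unadjusted p was under 0.05 for 5 and 1 of these collagen probes and for 7 and 2 pathway genes in the comparisons with 0. Over all 14955 probes of that fit, calls fell as well. They numbered 3036 instead of 7219 for CDTX in sham mice, 258 instead of 4393 between the CDTX groups and 43 instead of 3483 in the interaction. Values that turned direction with the score were, for CDTX in sham mice, Col4a1 (-0.27) and Bmp1 (2.24), between the CDTX groups Col18a1 (-0.22), Col23a1 (-0.18), Col4a1 (0.01), Bmp1 (-0.62), Plod3 (-0.87) and P3h1 (-0.45), and in the interaction Plod3 (-0.45) and P3h1 (-0.08). Of these, Bmp1 for CDTX in sham mice was called in its new direction (limma adjusted p = 0.00882), and the others were not called. P4ha2 turned to 0.02 for CDTX in SCI mice in the authors' deposited table and to 0.13 in sham mice under median scaling. With all 16 arrays, 7 collagen probes and 5 pathway genes were called between the CDTX groups, 5 pathway genes instead of 10 between the saline groups, and 2 collagen probes and 2 pathway genes in the interaction. Over all probes, calls then numbered 2613 instead of 4393, 3579 instead of 4350 and 1532 instead of 3483. Under median scaling 19 collagen probes were called for CDTX in sham mice, 9 instead of 17 between the saline groups and 3 in the interaction, with 9 pathway genes. Over all probes, 7877 instead of 7219, 5132 instead of 4350 and 4743 instead of 3483 were then called. Without a detection filter 7 collagen probes were called between the CDTX groups, and in a fit of only these groups 14 pathway genes. All probes called there numbered 3939 of 25697 and 5755 of 14763. Without Sham+Saline 4 and SCI+Saline 4, 14 collagen probes were called for CDTX in sham mice and 9 pathway genes in the interaction. Of all 14503 probes, 7259 and 3746 were called in these comparisons. With each array left out in turn, collagen probes called numbered 12 to 18 (CDTX in SCI mice), 6 to 13 (CDTX in sham mice, 13 without Sham+Saline 4), 6 to 13 (CDTX groups, most changed without SCI+CDTX 1 or 4), 14 to 21 (saline groups) and 4 to 6 (interaction), and pathway genes 16 to 20, 15 to 22, 6 to 9, 7 to 11 and 4 to 8 (most changed without SCI+Saline 3 or Sham+Saline 4). All probes called then numbered 4719 to 6662, 6473 to 7387, 3192 to 4572, 3661 to 4500 and 2753 to 3846. With the replicate number as a block, 16, 9, 10, 17 and 4 collagen probes and 17, 18, 9, 10 and 6 pathway genes were called. Over all probes the block gave 5842, 7073, 4034, 4215 and 3179. The numbers do not pair the arrays, as the correlation of same-numbered arrays was over 0.1 in 3 of 21 pairs (-0.27 to 0.38). Over 94 results on single genes, settings other than leaving out arrays kept direction and call in 815 cases, lost the call in 72, gained it in 23 and turned direction in 12. Why these values moved was not tested. The fit with the score rests largely on SCI+CDTX 2, which the authors excluded. Dim probes such as Col9a1, Col23a1 and Col4a5 lie near the detection limit, where few calls are secure.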
